A study of Mus musculus with 16 samples.

Results

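Chronic ethanol feeding was examined in the livers of mice that were all given iodomethylcholine (IMC), by setting ethanol-fed mice with IMC (EtOH IMC) against pair-fed mice with IMC (Pair IMC). IMC blocks the enzyme with which gut bacteria cleave choline to trimethylamine (TMA), and both groups received it in the liquid diet at 0.06% wt/wt. The members are the 8 of 16 liver RNA libraries that carry these labels, 4 in each group, chosen by label alone, and the genes whose value was 10 or higher in 4 or more of these 8 libraries, which were 12084 of the 24082 genes listed. The mice were female C57Bl6/J mice, 9 to 11 weeks old. Ethanol-fed mice drank a Lieber-DeCarli liquid diet in which ethanol was raised from 1% to 6% vol/vol over 25 days, and pair-fed mice received the same diet with maltose dextrin in place of the ethanol calories. The other 8 libraries came from the same 2 diets without IMC (Pair control and EtOH control, 4 each) and are used to estimate the spread and to ask where the ethanol effect under IMC differed from that without it. Per the study, mice on both IMC and ethanol ate less and weighed less than ethanol-fed mice without IMC. Body weight also differed between pair-fed mice with and without IMC. Control mice were pair-fed, but the study's text does not compare the intake of EtOH IMC with that of Pair IMC. Ethanol itself and a lower intake of diet therefore cannot be told apart here. Nor can IMC and a lower intake where the ethanol effects with and without IMC are compared. The Pair IMC libraries are numbered 2, 4, 6 and 8 and the EtOH IMC libraries 9, 11, 13 and 15, so diet under IMC and the order of numbering cannot be told apart either.

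As background, hepatocytes clear ethanol through alcohol and aldehyde dehydrogenases and through the cytochrome P450 enzyme CYP2E1, and the acetate that results is activated to acetyl-CoA. Xenobiotics are sensed by nuclear receptors such as CAR and PXR, which induce P450 enzymes, conjugating enzymes and export pumps, while the transcription factor NRF2 induces genes of glutathione and NADPH use. The liver also makes fatty acids, bile acids, plasma proteins and, in mice, pheromone-binding urinary proteins, and many of its genes differ between the sexes under the control of growth hormone.

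The deposited values are read counts divided by a factor for each library, and they were brought to 1 scale over all 16 libraries before use; "value" below means this normalized read count. Between 9693199 and 12601199 reads were counted on genes in the 8 libraries. Albumin transcripts took 11.7% to 12% of reads in Pair IMC and 6.74% to 9.12% in EtOH IMC. In bulk liver RNA, fewer cells of a type and less RNA per cell cannot be told apart. Library 11 of EtOH IMC stood apart in skeletal muscle genes: the muscle creatine kinase gene Ckm had a value of 89.2 there and 0 in the other 15 libraries, and the summed adipocyte and muscle markers reached 1203 in EtOH IMC against at most 50.8 in Pair IMC.

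Under IMC, ethanol feeding changed 2067 of the 12084 genes tested at an adjusted p under 0.05 (17.1% of genes; limma's test with Benjamini-Hochberg adjustment). Of these, 987 genes (8.17%) were higher in EtOH IMC and 1080 (8.94%) were lower. The log2 fold change exceeded 1 for 159 of the higher genes and was under -1 for 157 of the lower genes, while it was smaller than 0.5 in size for 990. In 2355 genes (19.5% of those tested) the 4 values of one group did not overlap with those of the other, among them 1660 of the 2067. For a single such gene the exact permutation test over the 70 divisions of 8 libraries gives a two-sided p of 0.0286, the smallest that this design allows. The count of genes called was 1371 without library 15 of EtOH IMC and 2199 without library 11. On the values as deposited, which carry a shift of 0.19 (log2) of the median gene between the 2 groups, 3193 genes were higher and 427 lower, so the even split of rises and falls, and each direction below, is relative to the median gene. In the volcano plot the largest effects lie on both sides. Drug-metabolizing genes are found on both, with Cyp2b10 and Gsta1 among the rises and Cyp3a16 and Ugt1a5 among the falls. The lipid genes Fabp5 and Scd1 and the acute phase gene Saa1 are also among the falls.

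**Figure D1:**
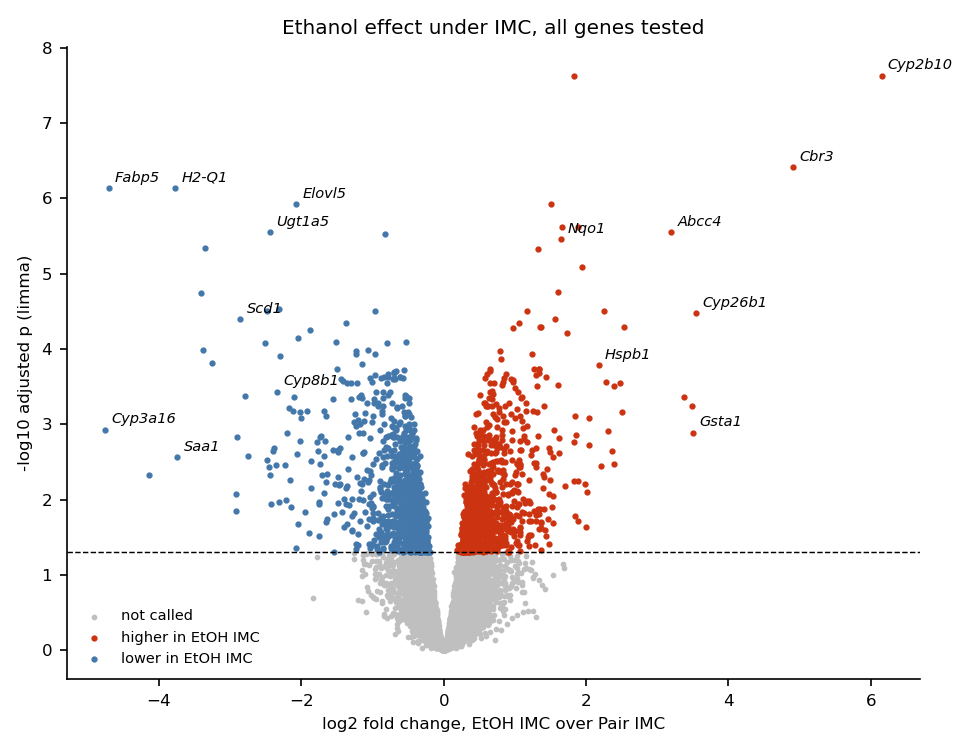
Volcano plot of the 12084 genes tested: the x axis gives the log2 fold change of EtOH IMC over Pair IMC, the y axis the -log10 of limma's adjusted p, and the dashed line marks 0.05. Red points are the 987 genes higher and blue points the 1080 genes lower in EtOH IMC, with Cyp2b10 at 6.15 and Cyp3a16 at -4.75 farthest out.

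Genes named below as the largest rises and falls were picked among called genes whose groups did not overlap. For these genes the lack of overlap was set by that choice. The largest rise under IMC was that of Cyp2b10, the P450 gene that is the classic target of the receptor CAR. Cyp2b10 had values of 67.7, 53.2, 31.9 and 73.8 in Pair IMC and 6398, 1454, 5312 and 4714 in EtOH IMC. Library 11 was the lowest of the ethanol-fed libraries and still lay far above all pair-fed ones. The log2 fold change was 6.15 ± 0.37 (SE, adjusted p = 2.35e-08). The gene lies on chromosome 7 at 25897620 to 25926624 (GRCm38, plus strand). Several Cyp2c genes rose too. Cyp2c54 had values of 248, 171, 82.7 and 290.3 in Pair IMC and 674, 1777, 925 and 706 in EtOH IMC. All 4 ethanol-fed libraries were above the pair-fed ones, and library 11, the lowest for Cyp2b10, was the highest here. This was a log2 fold change of 2.39 ± 0.35 (SE, adjusted p = 0.00031). Cyp2c50 rose by 1.94 (adjusted p = 8.2e-06) and Cyp2c37 by 1.32 (adjusted p = 4.67e-06), both without overlap. Cyp1a2, a caffeine- and arylamine-oxidizing enzyme and a target of the aryl hydrocarbon receptor, had values of 2713, 1334, 1391 and 2035 in Pair IMC and 7518, 3188, 12133 and 10257 in EtOH IMC (log2 fold change 2.05 ± 0.34 (SE), adjusted p = 0.00082). Cyp2a5 rose by 1.53 (adjusted p = 0.00887). Cyp2c55 and Cyp3a11, a target of the receptor PXR, had log2 fold changes of 0.08 and 0.14 and did not pass the test.

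Other P450 genes fell. Cyp3a16, a female-biased gene of the same subfamily as Cyp3a11, had values of 274, 120.0, 365 and 452 in Pair IMC and 45.3, 37.04, 4.95 and 0 in EtOH IMC. The log2 fold change was -4.75 ± 0.83 (SE, adjusted p = 0.00118), and it ranged from -5.48 without library 9 to -3.64 without library 15, and library 15 held no read of it. All 8 values lay below those of the mice without IMC, whose means were 3948 ± 1058 (Pair control) and 2911 ± 1132 (EtOH control). Cyp3a44 fell by 2.46 on the log2 scale (adjusted p = 0.00366) and Cyp2c39 by 2.48 (adjusted p = 3.14e-05). Cyp2e1, the ethanol-oxidizing P450, had a mean of 55689.5 ± 7358 in Pair IMC and 29259.6 ± 12249 in EtOH IMC, and its value fell by 1.0 (log2, adjusted p = 0.00335), and library 11, at 47335, lay within the pair-fed range. Cyp2f2, a periportal P450, fell by 0.71 (adjusted p = 0.00108). In all, 44 of the 59 genes of P450 families 1 to 3 reached the minimum, of which 14 rose and 12 fell, beside 8.17% and 8.94% over all genes, and the median log2 fold change was 0.05 beside 0.00 over all genes tested. Cyp3a, Cyp2c and Cyp2d genes resemble each other closely in sequence, and reads may have been divided between them.

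The retinoic acid hydroxylase genes Cyp26a1 and Cyp26b1 were among the largest rises. Cyp26b1 had values of 129, 45.5, 115 and 37.5 in Pair IMC and 694, 825, 1209 and 716 in EtOH IMC. The groups were well apart. On the log2 scale the difference came to 3.54 ± 0.40 (SE, adjusted p = 3.34e-05). Cyp26a1 had values of 23.2, 67.7, 85.6 and 178 in Pair IMC and 700.2, 585, 1269 and 578 in EtOH IMC, and its highest pair-fed library lay well below its lowest ethanol-fed one (log2 fold change 3.38 ± 0.52 (SE), adjusted p = 0.000434). Of the other genes on the list of largest rises, the neutral amino acid transporter gene Slc1a4 rose by 2.25 (adjusted p = 3.14e-05), the MAP kinase phosphatase gene Dusp4 by 2.53 (adjusted p = 5.04e-05) and the prostaglandin F receptor gene Ptgfr by 2.01 (adjusted p = 0.00789). The gene with the smallest p-value of all was Spry4, an inhibitor of receptor tyrosine kinase signalling, which is named here after its values were seen: it rose from 44.7 ± 2.53 (SD, n = 4) to 161 ± 12.7 (SD, n = 4) (log2 fold change 1.82, adjusted p = 2.35e-08).

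Conjugating enzymes changed by family. Of 24 glutathione S-transferase genes, 21 were tested. Of these, 11 rose, 1 fell and 9 did not pass (57.1% called, beside 17.1% of all genes). The median log2 fold change was 0.47. Gsta1 had values of 36.4, 70.6, 54.8 and 38.8 in Pair IMC and 624, 161, 1119.7 and 849 in EtOH IMC. Library 11 was the lowest ethanol-fed library, and the log2 fold change of 3.50 (SE 0.62, adjusted p = 0.00129) became 4.09 without it. Gstm3 had values of 771, 1200.1, 964 and 1199 in Pair IMC and 6471, 2801, 7587 and 7472 in EtOH IMC. Library 11 was again the lowest of its group, and the groups did not overlap. Fitted by limma, the log2 fold change was 2.48 ± 0.36 (SE, adjusted p = 0.000279). Gsta2 rose by 2.37, Gstm1 by 1.73, Gstm4 by 1.66, Gstp2 by 1.71, Gstp1 by 1.33 and Gsta4 by 1.28 on the log2 scale, with adjusted p-values of 2.37e-06 (Gstm4) to 0.00649 (Gstp2). Gstz1, which acts in tyrosine breakdown, was the 1 member lower in EtOH IMC, by 0.29 (adjusted p = 0.043, at most 0.14 without library 1, 2, 3, 6, 8, 9 or 13); it is named after its values were seen.

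UDP-glucuronosyltransferases moved in both directions, with 3 of 16 tested genes higher and 5 lower (50% called, beside 17.1% of all genes). Ugt1a5 had values of 796, 709, 727 and 1432 in Pair IMC and 146, 259, 145 and 118 in EtOH IMC. All ethanol-fed libraries were below the pair-fed ones. The log2 fold change was -2.45 ± 0.22 (SE, adjusted p = 2.79e-06). Ugt1a5 shares its last exons with the other Ugt1a genes, so its reads may not be its own. Ugt3a1 fell by 1.23 (adjusted p = 0.000107), while Ugt2b35, Ugt2b34 and Ugt2b1 rose by 1.11, 0.88 and 0.53 (adjusted p = 0.00112, 0.000214 and 0.00472). The other falls were those of Ugt1a2 by 1.23 (adjusted p = 0.0388, at most 0.119 without library 2, 4, 6, 8, 9 or 15), Ugt1a6a by 0.57 (adjusted p = 0.0497, at most 0.136 without library 2, 4, 6, 7, 8, 9, 10, 11, 13 or 15, and 0.0524 by edgeR) and Ugt2a3 by 0.64 (adjusted p = 0.0048). Among 12 sulfotransferase genes tested, 3 were higher and 3 lower (50% called, beside 17.1% of all genes). Sult2a8 had values of 1594, 561, 566 and 1171 in Pair IMC and 69.3, 615, 65.3 and 65.7 in EtOH IMC; library 11 lay within the pair-fed range, and the log2 fold change of -2.90 (adjusted p = 0.00149) was -3.70 without it. Sult1b1 fell by 1.44 (adjusted p = 0.000252), Sult1a1 and Sult2a2 rose by 0.58 and 0.56 (adjusted p = 0.00974 and 0.0127) and Sult2a3 by 1.37 (adjusted p = 0.047, at most 0.121 without library 1, 2, 3, 4, 5, 6, 7, 8, 9, 11, 12, 13 or 15). Of 12 carboxylesterase genes tested 2 rose and 4 fell (50% called, beside 17.1% of all genes). Ces2c rose by 2.05 and Ces2a by 1.12 (adjusted p = 0.00191 and 0.00141), whereas Ces1e fell by 0.78 and Ces3a by 2.49 (adjusted p = 0.00204 and 0.00302). Without library 11 the Ces3a change was -3.11. Ces1b fell by 0.90 (adjusted p = 0.00729) and Ces3b by 1.28 (adjusted p = 0.0249, at most 0.0876 without library 2, 8, 9 or 13); the call of Ces3b was also lost by edgeR (0.0669) and DESeq2 (0.0756), and the change was -1.74 without library 11.

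Of the export pumps that carry conjugates out of the hepatocyte into blood, Abcc4 and Abcc3 rose. Abcc4 had values of 72.7, 95.8, 113 and 121 in Pair IMC and 1194, 555, 1387 and 755 in EtOH IMC. The ethanol-fed libraries were all higher, with number 11 the lowest of them. This was a log2 fold change of 3.19 ± 0.29 (SE, adjusted p = 2.79e-06). Abcc3 rose by 1.51 (SE 0.13, adjusted p = 1.19e-06) and the multidrug pump gene Abcb1a by 0.84 (adjusted p = 0.000924). The xenobiotic pump gene Abcg2 rose by 0.39 (adjusted p = 0.0105). The organic anion uptake carrier gene Slco1a4 fell by 0.72 (adjusted p = 0.0056). The bile salt carriers of the blood and bile side, Slc10a1 and Abcb11, had log2 fold changes of -0.13 and -0.11 and did not pass.

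Among the 15 tested genes of NRF2 and NADPH use, 4 rose and 2 fell (40% called, beside 17.1% of all genes). Nqo1, a quinone reductase, lies on chromosome 8 at 107388225 to 107403206 (GRCm38, minus strand). Nqo1 had values of 159, 169, 171 and 153 in Pair IMC and 504, 437, 603 and 523 in EtOH IMC. Each group was narrow and they did not overlap. On the log2 scale the difference came to 1.65 ± 0.15 (SE, adjusted p = 3.48e-06). Srxn1, which repairs oxidized peroxiredoxins, rose from 491 ± 61.5 (SD) to 1869 ± 546 (SD) (log2 fold change 1.89 ± 0.17 (SE), adjusted p = 2.37e-06), and the glutathione reductase gene Gsr rose by 0.46 (adjusted p = 0.00224). Txnrd1 rose by 0.31 (adjusted p = 0.0388), and its adjusted p was above 0.05 without library 2, 6, 8 or 13 (at most 0.133). The 2 subunit genes of glutathione synthesis did not pass: the log2 fold change was 0.51 for Gclc and -0.28 for Gclm, with adjusted p-values of 0.0623 and 0.0661. Both passed with DESeq2 (0.0335 and 0.0408) and without library 11. The NADPH-producing enzymes of the list went the other way: malic enzyme, Me1, fell by 1.20 (adjusted p = 0.000888), and G6pdx, named after its values were seen, fell by 1.17 (adjusted p = 0.00609). The carbonyl reductase gene Cbr3, not on the list, had values of 5.05, 6.77, 9.96 and 5.01 in Pair IMC and 223, 127, 341 and 253 in EtOH IMC (log2 fold change 4.90 ± 0.36 (SE), adjusted p = 3.86e-07).

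As many of these genes rose, their promoters were read for the core letters of the antioxidant response element bound by NRF2, TGACNNNGC, on both strands. The windows are those of RefSeq on GRCm38.p6, from 250 bases before to 50 after each start. Of 15 genes with rises (8 Gst genes, Nqo1, Srxn1, Cbr3, Abcc3, Abcc4, Txnrd1 and Gsr), 12 had a window and 3 of these held the motif (Srxn1, Abcc4 and Txnrd1). Over all 32851 windows 12.4% held it, and of the tested genes with a window 16.8% did, 18.1% of those higher and 16.9% of those lower in EtOH IMC. The windows of Srxn1 (chr2:152105274-152105573, plus strand) and Abcc4 (chr14:118706170-118706469, minus strand) are shown with the match in capitals, 5′ to 3′ on the strand of the gene.
Srxn1: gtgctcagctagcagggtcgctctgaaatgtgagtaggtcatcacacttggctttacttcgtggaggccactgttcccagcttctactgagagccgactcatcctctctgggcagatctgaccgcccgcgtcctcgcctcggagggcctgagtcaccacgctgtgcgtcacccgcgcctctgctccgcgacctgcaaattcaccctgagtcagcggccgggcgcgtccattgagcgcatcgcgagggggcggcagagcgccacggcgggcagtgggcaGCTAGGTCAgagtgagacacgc
Abcc4: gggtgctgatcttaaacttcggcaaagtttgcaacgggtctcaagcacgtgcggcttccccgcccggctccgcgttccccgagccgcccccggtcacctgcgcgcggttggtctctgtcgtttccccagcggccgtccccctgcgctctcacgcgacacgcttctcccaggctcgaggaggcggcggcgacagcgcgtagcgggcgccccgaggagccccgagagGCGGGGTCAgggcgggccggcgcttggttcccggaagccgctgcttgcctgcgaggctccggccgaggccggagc

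The enzymes of ethanol oxidation moved apart. Of 14 tested genes 3 were higher and 4 lower in EtOH IMC (50% called, beside 17.1% of all genes). Aldh1b1 and Aldh1a1, which oxidize acetaldehyde and other aldehydes, rose by 0.74 and 0.73 (adjusted p = 0.00146 and 0.00784). Adh1, the main hepatic alcohol dehydrogenase gene, had means of 20023 ± 1475 (SD) and 27900.1 ± 5234 (SD); its rise of 0.46 (adjusted p = 0.0299) lost the call without library 2, 4, 6, 11, 13 or 15 (at most 0.0939). The mitochondrial acetaldehyde dehydrogenase gene Aldh2 differed by -0.30 on the log2 scale (adjusted p = 0.0511 by limma, 0.0442 by edgeR and 0.00549 by DESeq2). Acss2, which turns acetate into cytosolic acetyl-CoA for lipid synthesis, had values of 2897, 2383, 2942 and 8998 in Pair IMC and 805, 1184, 931 and 750.4 in EtOH IMC, without overlap (log2 fold change -2.02 ± 0.33 (SE), adjusted p = 0.000676). Adh7, a retinol-oxidizing alcohol dehydrogenase gene, and the aldehyde dehydrogenase gene Aldh9a1 fell by 0.46 (adjusted p = 0.0202, at most 0.0743 without library 4, 6, 9 or 15) and 0.36 (adjusted p = 0.0427, at most 0.142 without library 1, 2, 3, 5, 6, 7, 8, 13 or 15, and 0.0526 by edgeR), and Cyp2e1 fell as given above.

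In TMA and choline metabolism, 1 of 24 genes rose and 5 fell (25% called, beside 17.1% of all genes). Fmo5, a flavin-containing monooxygenase gene, rose by 0.87 (adjusted p = 0.000562). Its relative Fmo4 fell by 0.47 (adjusted p = 0.0491, at most 0.151 without library 1, 3, 4, 5, 6, 7, 8, 9, 13, 14, 15 or 16, and 0.0529 by edgeR) and Mat2a, which makes S-adenosylmethionine, by 0.40 (adjusted p = 0.0193, at most 0.0668 without library 6 or 15). Dmgdh, which oxidizes dimethylglycine, fell by 0.73 (adjusted p = 0.00262), Mtr, methionine synthase, by 0.47 (adjusted p = 0.00977) and the choline kinase gene Chkb by 0.52 (adjusted p = 0.00238). Bhmt, which uses betaine to remake methionine, had values of 20492, 16407, 19106 and 46804 in Pair IMC and 23889, 27752, 7252 and 8132 in EtOH IMC, so that the groups overlapped (log2 fold change -0.74, adjusted p = 0.209).

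De novo lipogenesis was among the lists with most falls. Of 21 tested genes, 11 fell and 2 rose (61.9% called, beside 17.1% of all genes), and the median log2 fold change was -0.65. Scd1, the desaturase that makes oleate, lies on chromosome 19 at 44394455 to 44407879 (GRCm38, minus strand). Scd1 had values of 129212, 285515, 337169 and 375108 in Pair IMC and 22160.3, 31195, 61059 and 40084 in EtOH IMC. Library 2 was the lowest of the pair-fed libraries and still above every ethanol-fed one. Fitted by limma, the log2 fold change was -2.86 ± 0.33 (SE, adjusted p = 4.01e-05). Elovl5, an elongase of polyunsaturated fatty acids, had values of 10475, 9209, 10928 and 15939.7 in Pair IMC and 2596, 3112, 2819 and 2347 in EtOH IMC (log2 fold change -2.07 ± 0.17 (SE), adjusted p = 1.19e-06). Pnpla3, a lipid droplet protein gene driven by lipogenic factors, fell by 1.55 (adjusted p = 0.00219) and liver pyruvate kinase, Pklr, by 0.95 (adjusted p = 0.000374). The acetyl-CoA carboxylase gene Acaca fell by 0.65 (adjusted p = 0.0142, and 0.053 without library 15). Fatty acid synthase, Fasn, differed by -0.10 (log2, SE 0.17) and Elovl6 by -0.57 (adjusted p = 0.109), so neither passed, but Elovl6 did without library 11 (-0.84, adjusted p = 0.00887). Srebf1, which encodes the lipogenic factor SREBP1, was higher in EtOH IMC by 0.82 (adjusted p = 0.000297), and the acyltransferase gene Agpat2 by 0.36 (adjusted p = 0.0443, at most 0.144 without library 1, 2, 3, 4, 6, 9, 13 or 15). Acly and Acacb, which supply cytosolic acetyl-CoA and malonyl-CoA, fell by 0.72 (adjusted p = 0.0155, 0.0512 without library 15) and 0.84 (adjusted p = 0.0302, at most 0.104 without library 6, 8, 9, 13 or 15), and the desaturase genes Fads1 and Fads2 by 0.92 (adjusted p = 0.000517) and 0.998 (adjusted p = 0.000771).

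Lipid droplet and fatty acid binding genes fell in 9 and rose in 3 of 21 tested (57.1% called, beside 17.1% of all genes). Their median was -0.33. The largest of these was Fabp5, the epidermal fatty acid binding protein gene, on chromosome 3 at 10012548 to 10016607 (GRCm38, plus strand). Fabp5 had values of 1258, 915, 1168 and 3462 in Pair IMC and 47.9, 49.7, 53.4 and 73.3 in EtOH IMC. The ethanol-fed values lay close together and far below the pair-fed ones, of which library 8 was the highest. The log2 fold change was -4.71 ± 0.37 (SE, adjusted p = 7.22e-07). Plin4 fell by 1.37 (adjusted p = 0.00691) and Fitm2, which acts in droplet formation, by 0.33 (adjusted p = 0.00611). Plin2, Plin5 and Cidec, which sit on droplets, fell by 0.60, 0.57 and 0.82 with adjusted p-values of 0.0294, 0.0147 and 0.0357; the call of Plin2 was lost without library 4, 6, 8, 9 or 13 (at most 0.097), that of Plin5 without library 2 (0.0506) and that of Cidec without library 2, 6, 13 or 15 (at most 0.115). On the deposited values Plin2, Plin5, Cidec and Fitm2 did not pass. Hsd17b13, another droplet enzyme gene, rose by 0.51 (adjusted p = 0.00267), Plin3 by 0.41 (adjusted p = 0.0161, 0.0584 without library 6) and the lipase coactivator gene Abhd5 by 0.34 (adjusted p = 0.0125), and Cd36 differed by 0.46 (log2, adjusted p = 0.0991).

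Of 27 tested genes of fatty acid oxidation 7 fell (25.9% called, beside 17.1% of all genes) and the others did not pass. Cyp4a31, an omega-hydroxylase, fell by 1.64 (adjusted p = 0.0045), Ehhadh of the peroxisome by 0.81 (adjusted p = 0.0098), Cpt1a, the gate of mitochondrial oxidation, by 0.60 (adjusted p = 0.00315) and Acaa1a by 0.44 (adjusted p = 0.00403, not passed on the deposited values). Cyp4a10, Cyp4a14 and Pdk4 had log2 fold changes of -0.45, -0.30 and -0.48 and did not pass. Without library 11, Cyp4a10 was at -1.01 and past the threshold (adjusted p = 0.0152) and Cyp4a14 at -0.57 (adjusted p = 0.174). Of 24 cholesterol synthesis genes 3 fell: Pmvk fell by 1.27 (adjusted p = 0.000925), Fdps and Ebp fell by 0.92 and 0.43 (adjusted p = 0.0291 and 0.0369; both calls were lost without library 2, 8, 9, 13 or 15, with adjusted p-values of at most 0.0843 and 0.108), and the log2 fold change of Sqle was 0.21. Of 24 genes of lipoprotein assembly 1 fell, the phospholipid transfer protein gene Pltp, from 402 ± 131 (SD) to 105 ± 14.2 (SD) (log2 fold change -1.88 ± 0.22 (SE), adjusted p = 5.59e-05), while Apob and Mttp had log2 fold changes of -0.14 and -0.11.

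**Figure D2:**
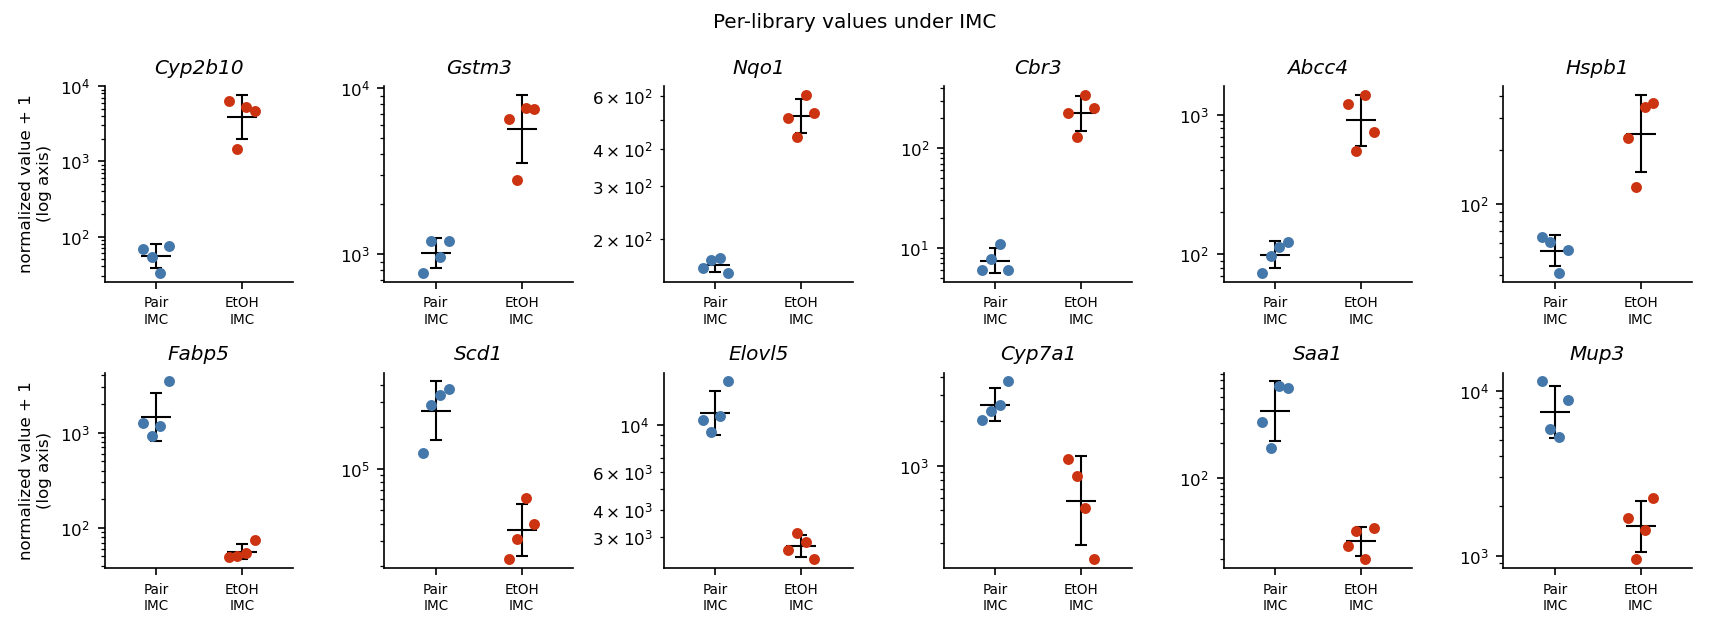
Values in each library for 12 genes: each panel has a log axis of the normalized value plus 1, points are single libraries (4 of Pair IMC in blue, 4 of EtOH IMC in red), bars the mean of the log values with its SD. In each of the 12 panels the groups do not overlap, with Cyp2b10, Gstm3, Nqo1, Cbr3, Abcc4 and Hspb1 higher and the other 6 lower in EtOH IMC.

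Both enzymes that set the amount and kind of bile acids fell. Cyp7a1, the rate-limiting enzyme of bile acid synthesis, lies on chromosome 4 at 6265612 to 6275633 (GRCm38, minus strand). Cyp7a1 had values of 2033, 2333, 2561 and 3719 in Pair IMC and 1117, 846, 512 and 231 in EtOH IMC. All ethanol-fed libraries were below the pair-fed ones. This was a log2 fold change of -2.16 ± 0.47 (SE, adjusted p = 0.00542). Cyp8b1, which makes the precursor of cholic acid, had values of 2455, 1971, 1037 and 2642 in Pair IMC and 385, 565, 631 and 144 in EtOH IMC (log2 fold change -2.34 ± 0.35 (SE), adjusted p = 0.000368). The peroxisomal enzyme gene Acox2 rose by 0.62 (adjusted p = 0.0016), whereas Cyp27a1 and Cyp7b1 of the alternative pathway had log2 fold changes of -0.28 (adjusted p = 0.0533, and 0.0299 by DESeq2) and 0.02 and Nr0b2, which encodes the repressor SHP, of 0.21. In total 1 of 17 genes of this list rose and 3 fell (23.5% called, beside 17.1% of all genes). The third fall was that of the conjugating enzyme gene Slc27a5, by 0.41 (adjusted p = 0.0359, at most 0.115 without library 2, 6, 8, 9 or 13).

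Acute phase genes fell in 4 and rose in 1 of 24 tested. Saa1, a serum amyloid A gene, lies on chromosome 7 at 46740497 to 46742980 (GRCm38, minus strand). Saa1 had values of 305, 180.0, 621 and 602 in Pair IMC and 24.8, 33.7, 18.8 and 35.7 in EtOH IMC. The ethanol-fed values were uniformly low, and 1 library of Pair control reached 6851. On the log2 scale the difference came to -3.74 ± 0.74 (SE, adjusted p = 0.00273). Its near copy Saa2 had values of 114, 110.3, 443 and 375 and 7.69, 16.8, 10.9 and 11.3 in the same order (log2 fold change -4.13 ± 0.89 (SE), adjusted p = 0.00469), and the alpha-1-acid glycoprotein gene Orm2 fell by 2.07 (adjusted p = 0.00247). Apcs, the serum amyloid P gene, fell by 0.60 (adjusted p = 0.0224, at most 0.0796 without library 2, 8, 13 or 15). Serpina3m rose by 0.57 (adjusted p = 0.0062). Haptoglobin (Hp) and hepcidin (Hamp) had log2 fold changes of -0.01 and 0.84 and did not pass, nor did Lcn2 (-1.21, adjusted p = 0.213, and 0.0306 without library 12 of Pair control). Of 29 complement and coagulation genes 4 fell: C4b by 0.83, F5 by 0.71, Cfi by 0.44 and C9 by 0.72 (adjusted p = 0.00219, 0.000252, 0.00715 and 0.0276; Cfi did not pass on the deposited values, and C9 not without library 2, 8, 11 or 13, at most 0.091). Interferon and antigen presentation genes were split, with 5 of 32 higher and 3 lower (25% called, beside 17.1% of all genes). Oasl1 rose by 1.33, Isg15 by 1.0 and Tap1 by 0.78 (adjusted p = 0.000186, 0.00472 and 0.0018), and Ifit1 by 0.70 (adjusted p = 0.0225, at most 0.0798 without library 4, 9, 13 or 15). The chemokine gene Cxcl9 fell by 1.14 (adjusted p = 0.00627), and the class II antigen presentation genes H2-Aa and H2-Eb1 by 0.81 (adjusted p = 0.0293, at most 0.082 without library 2, 8, 11 or 13) and 0.70 (adjusted p = 0.023, at most 0.0758 without library 2, 8, 11 or 13). H2-Q1, a class I major histocompatibility gene with near copies, was outside this list and had values of 263, 193, 183 and 365 in Pair IMC and 20.5, 21.04, 23.7 and 7.51 in EtOH IMC (log2 fold change -3.77 ± 0.30 (SE), adjusted p = 7.22e-07). Of 12 tested inflammatory cytokine and receptor genes 0 were called by limma and by edgeR, 1 by DESeq2 and 3 at an unadjusted p under 0.05; Tnf and Ccl2 were under the minimum, with means of 2.03 ± 1.30 and 0.717 ± 0.904 for Tnf. Il6ra, the IL-6 receptor gene, fell by 0.69 (adjusted p = 0.00517), while the leptin receptor gene Lepr had a log2 fold change of -0.76 (SE 0.27, adjusted p = 0.0639), and of -1.04 without library 11 (adjusted p = 0.00858).

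Many genes differ between the sexes in mouse liver. Of 20 tested female-biased genes 9 fell and 1 rose, beside 8.94% lower and 8.17% higher over all genes (median -0.52), and of 12 tested male-biased genes 5 rose and none fell, by limma, edgeR or DESeq2 or at an unadjusted p under 0.05 (median 0.40). The female-biased A1bg had values of 208, 72.6, 75.7 and 413 in Pair IMC and 19.7, 31.99, 11.9 and 15.97 in EtOH IMC (log2 fold change -2.92 ± 0.69 (SE), adjusted p = 0.00844). The sulfotransferase gene Sult3a1 fell by 2.92 (adjusted p = 0.0142, 0.0516 without library 13, where the change was -2.30; it was -3.81 without library 11, and it did not pass with DESeq2). On the male-biased side, Cyp2d9 rose by 1.39 (adjusted p = 0.00698) and Gstp1, Gstp2 and Ugt2b1 rose as given above; these counts therefore share members with the P450, Gst and Ugt families. Growth hormone signalling genes fell in 5 of 16 (31.2% called, beside 17.1% of all genes). The growth hormone receptor gene Ghr fell by 0.65, the prolactin receptor gene Prlr by 0.78 and Igfbp3 by 1.48 (adjusted p = 0.000606, 0.000239 and 0.00219), and the repressor gene Bcl6 fell by 1.04 (adjusted p = 0.0181, 0.0539 without library 8). Igfbp2 fell by 0.68 (adjusted p = 0.0315, at most 0.106 without library 2, 6, 8, 9, 13 or 15). Igf1 had a log2 fold change of 0.26 and Socs2 of -0.10, and neither passed.

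Of the 21 major urinary protein genes listed, which encode pheromone carriers, 5 reached the minimum in these 8 libraries. Of these, 3 fell and 1 rose (80% called, beside 17.1% of all genes). Mup3 had values of 11416, 5868, 5225 and 8768 in Pair IMC and 1682, 948, 1426 and 2242 in EtOH IMC. The groups did not overlap. Fitted by limma, the log2 fold change was -2.31 ± 0.25 (SE, adjusted p = 2.92e-05). Mup21 fell by 1.77 and Mup10 by 1.75 (adjusted p = 0.00226 and 0.0108). Mup20, known as darcin, rose by 0.66 (adjusted p = 0.0218), and lost the call without library 4, 6, 8, 13 or 15 (at most 0.0756). These genes are near copies and may share reads.

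Of 22 tested genes of ATF4 and amino acid stress 8 rose and 1 fell, beside 8.17% higher and 8.94% lower over all genes (median 0.39). Atf3 rose by 1.49, Sesn2 by 0.95 and the amino acid transporter gene Slc3a2 by 0.48 (adjusted p = 0.00542, 0.000738 and 0.00415). Asparagine synthetase, Asns, rose by 1.37 (adjusted p = 0.0237, above 0.05 without library 2, 9 or 15, at most 0.077) and the serine synthesis gene Psat1 by 1.37 (adjusted p = 0.0201, above 0.05 without library 2 or 9, at most 0.0634). Atf4 itself and Ddit3 had log2 fold changes of 0.33 and -0.03. The 1 gene that fell was Fgf21, a hormone gene of the fasted liver, with values of 124, 242, 199 and 73.8 in Pair IMC and 24.8, 54.7, 86.1 and 35.7 in EtOH IMC (log2 fold change -1.66, adjusted p = 0.0198, above 0.05 without library 4, 6, 9 or 15, at most 0.0655). Of 20 chaperone genes of the endoplasmic reticulum 2 rose and 1 fell (15% called, beside 17.1% of all genes), with Pdia3 higher by 0.33 (adjusted p = 0.0342, at most 0.107 without library 6, 8, 11 or 15), Dnajb11 by 0.46 (adjusted p = 0.0386, at most 0.128 without library 6, 8, 9 or 15) and Herpud1 lower by 0.64 (adjusted p = 0.0285, at most 0.0943 without library 2, 6, 9 or 15), and Hspa5 (BiP) differed by 0.45 (log2, adjusted p = 0.0928). Of 14 tested p53 target genes 6 rose and the others did not pass (42.9% called, beside 17.1% of all genes). Their median was 0.75. Bax rose by 0.82, Ccng1 by 0.82 and Bbc3 by 0.75 (adjusted p = 0.00138, 0.00313 and 0.0168). Cdkn1a (p21) had values of 173, 40.6, 89.6 and 267 and 634, 53.03, 294 and 387 and did not pass (adjusted p = 0.305), nor did Mdm2 (0.06). Without library 11, the lowest ethanol-fed library for it, the log2 fold change of Cdkn1a went from 1.12 to 1.86 (adjusted p = 0.0528).

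Heat shock genes rose in 6 of 13 tested, and the others did not pass (46.2% called, beside 17.1% of all genes). Their median was 0.60. Hspb1 had values of 63.6, 60.0, 39.8 and 53.8 in Pair IMC and 233, 123, 348 and 363 in EtOH IMC. All ethanol-fed libraries were above the pair-fed ones, with library 11 nearest to them. The log2 fold change was 2.18 ± 0.29 (SE, adjusted p = 0.000163). Hsp90aa1 rose by 1.33, Hsph1 by 1.03, Hspa8 by 0.78 and Dnaja1 by 0.58 (adjusted p = 0.00143, 0.0126, 0.0113 and 0.00987); in Hsph1, Hspa8 and Dnaja1, library 11 lay within the pair-fed range, while Hsp90aa1 did not overlap between the groups. The mitochondrial chaperonin gene Hspd1 had a log2 fold change of -0.13. A heat shock element was sought as GAANNTTC, which reads the same on both strands. The genes searched for were 6: Hspb1, Hsp90aa1, Hsph1, Hspa8, Dnaja1 and Dnajb1. Of these, 4 had a RefSeq window, and 3 of the 4 held the element (Hspb1, Hsph1 and Dnaja1). It was held by 7.86% of all windows, and by 7.26% of tested genes with a window (8.67% of those higher and 7.08% of those lower). The windows of Hspb1 (chr5:135887669-135887968, plus strand) and Hsph1 (chr5:149636287-149636586, minus strand) are shown with the matches in capitals; the first holds 2.
Hspb1: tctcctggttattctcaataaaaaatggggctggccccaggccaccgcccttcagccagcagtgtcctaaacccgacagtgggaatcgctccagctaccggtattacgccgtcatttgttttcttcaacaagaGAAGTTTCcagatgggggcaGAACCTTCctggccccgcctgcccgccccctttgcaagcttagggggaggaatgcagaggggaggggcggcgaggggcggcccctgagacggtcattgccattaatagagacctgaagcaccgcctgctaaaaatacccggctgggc
Hsph1: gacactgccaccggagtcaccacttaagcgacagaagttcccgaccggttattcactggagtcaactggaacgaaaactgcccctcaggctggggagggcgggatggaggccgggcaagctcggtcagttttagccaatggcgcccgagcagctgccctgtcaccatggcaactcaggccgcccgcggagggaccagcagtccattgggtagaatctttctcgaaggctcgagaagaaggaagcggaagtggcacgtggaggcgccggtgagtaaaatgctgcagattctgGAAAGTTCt

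Of 23 glucose and glycogen genes 2 rose and 3 fell (21.7% called, near the 17.1% over all genes): the phosphofructokinase gene Pfkl rose by 0.66 (adjusted p = 0.000374), the mitochondrial Pck2 by 0.67 (adjusted p = 0.0181, at most 0.0676 without library 4 or 15), Pklr fell as above, the glucose transporter gene Slc2a2 by 0.39 (adjusted p = 0.0245, at most 0.0784 without library 2, 6, 9 or 15) and fructokinase, Khk, by 0.41 (adjusted p = 0.034, at most 0.109 without library 4, 6, 8, 9 or 13), and Pck1 and G6pc of gluconeogenesis had log2 fold changes of 0.23 and -0.75 without passing. Among 28 genes of amino acid breakdown and the urea cycle, 7 rose and 3 fell (35.7% called, beside 17.1% of all genes). The alanine transaminase gene Gpt rose by 0.64 and the histidase gene Hal by 0.76 (adjusted p = 0.00139 and 0.00415), whereas glutamine synthetase, Glul, fell by 0.58 and the aspartate-glutamate carrier gene Slc25a13 by 0.49 (adjusted p = 0.000573 and 0.000452) and glutamate dehydrogenase, Glud1, by 0.39 (adjusted p = 0.00579); the urea cycle genes Cps1, Ass1 and Arg1 had log2 fold changes of 0.11, -0.13 and 0.38 and did not pass, although Arg1 did without library 11 (adjusted p = 0.0373) and with DESeq2 (0.0259). The taurine synthesis genes Csad and Cdo1 fell by 1.35 and 0.78 (adjusted p = 0.00393 and 0.000214), and the taurine transporter gene Slc6a6 rose by 0.37 (adjusted p = 0.0201, at most 0.0715 without library 2, 13 or 15).

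Of 83 cytosolic ribosomal protein genes 1 was called, Rpl3, which fell by 0.39 (adjusted p = 0.0362) and lost the call without library 2, 6, 8, 9, 13 or 15 (at most 0.116); the list's median was -0.07. Respiratory chain subunits encoded in the nucleus fell in 6 of 76, for example Sdha by 0.42 and Uqcrfs1 by 0.31 (adjusted p = 0.00269 and 0.00846; Uqcrfs1 did not pass on the deposited values). Of 38 proteasome genes 2 rose, Psmd13 by 0.31 and Psmc5 by 0.33 (adjusted p = 0.00974 and 0.012). Nucleolar factors rose in 5 and fell in 3 of 49 (16.3% called, near the 17.1% over all genes), with Myc higher by 1.02 (adjusted p = 0.0161, 0.0575 without library 13), Rrp12 by 0.67 (adjusted p = 0.0389, at most 0.115 without library 2, 8, 9, 13 or 15), Bop1 by 0.40 (adjusted p = 0.0263, at most 0.0827 without library 2, 8, 13 or 15), Nop16 by 0.31 (adjusted p = 0.0332, at most 0.0963 without library 2, 6, 8, 11, 13 or 15) and Imp4 by 0.30 (adjusted p = 0.0322, at most 0.106 without library 6, 8, 9, 13 or 15), and Npm1 lower by 0.43 (adjusted p = 0.0126), Utp14a by 0.33 (adjusted p = 0.0464, at most 0.134 without library 1, 2, 5, 6, 8, 9, 10, 11, 12, 13, 14, 15 or 16) and Imp3 by 0.33 (adjusted p = 0.0478, at most 0.144 without library 1, 2, 3, 4, 5, 6, 7, 9, 12, 13, 14, 15 or 16, and 0.052 by edgeR). Of 20 clock genes 1 passed, Nr1d1, which fell by 0.86 (adjusted p = 0.0207, at most 0.0738 without library 2, 6 or 9), of 19 cell cycle genes 1, Mcm2 (rose by 0.83, adjusted p = 0.0297, at most 0.0891 without library 4, 6, 8, 13 or 15), and of 7 fetal liver genes 1, Peg3 (rose by 0.54, adjusted p = 0.0176, at most 0.0546 without library 6, 9 or 13). Of 18 genes of iron handling the only call was transferrin, Trf, which fell by 0.71 (adjusted p = 0.019, 0.0565 without library 6, and 0.37 higher, not passed, with quantile normalization). Read against the 17.1% of all genes that were called, the called share was also near it or lower for the lists of cholesterol synthesis (12.5%), complement and coagulation (13.8%), acute phase proteins (20.8%), lipoprotein genes (4.17%), nuclear respiratory chain genes (7.89%) and the proteasome (5.26%). The same held for cytosolic ribosomal proteins (1.2%), clock genes (5%), cell cycle genes (5.26%), fetal liver genes (14.3%), iron handling (5.56%) and extracellular matrix genes (7.14%).

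**Figure D3:**
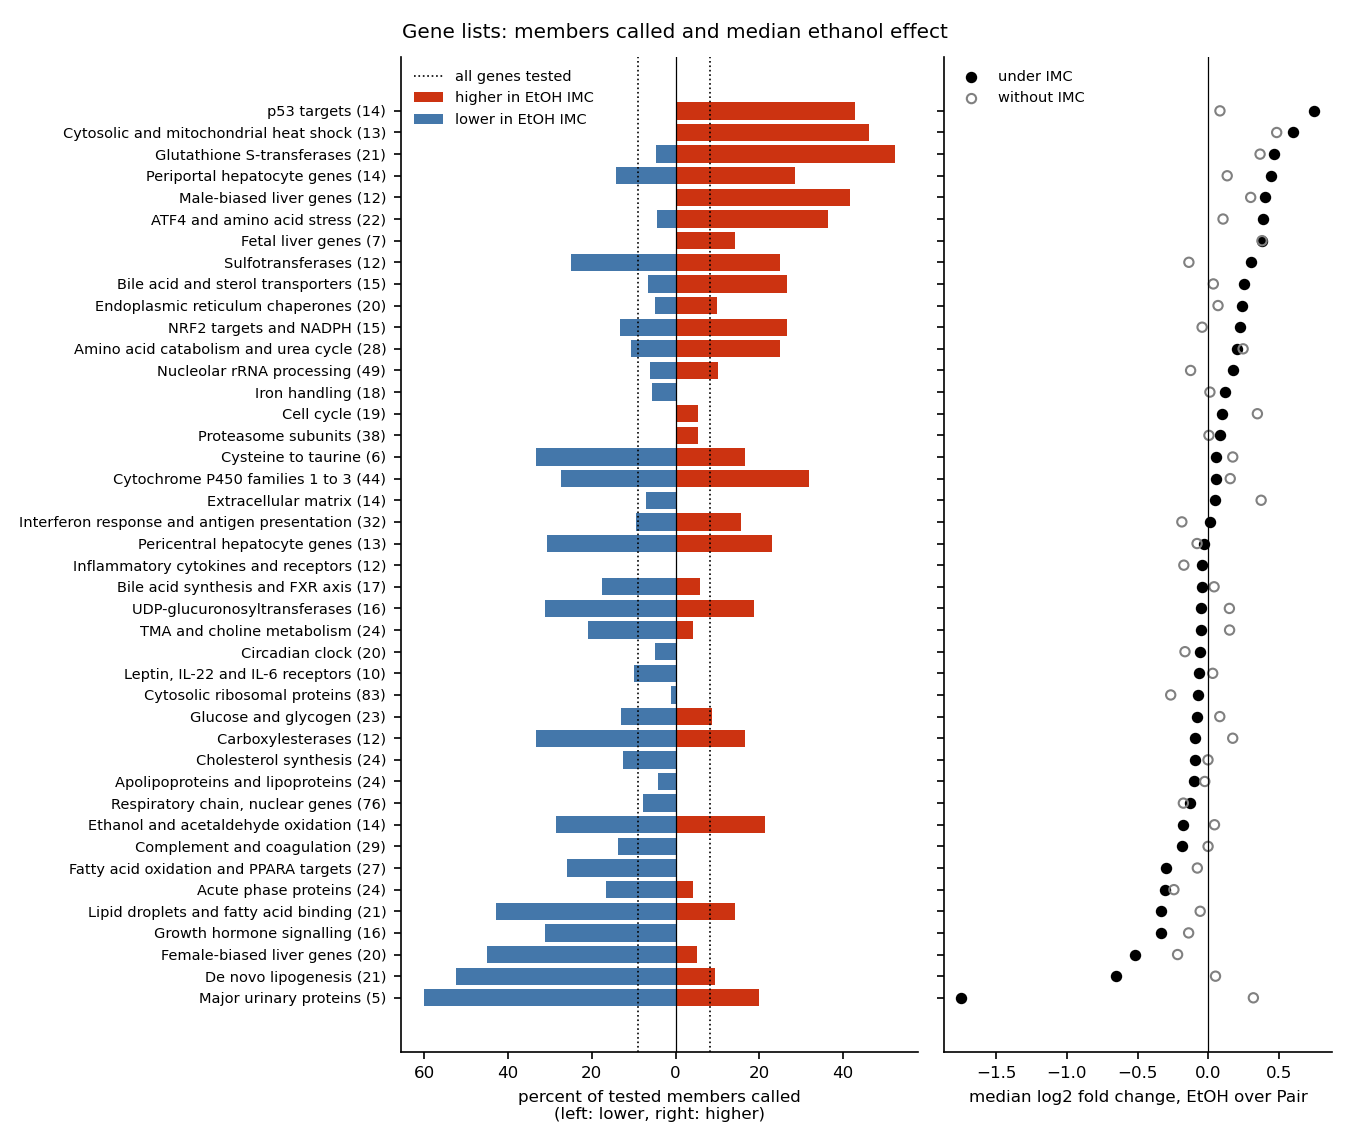
Lists with at least 5 tested members, ordered by median. The left panel gives the percentage of tested members called lower (left) or higher (right) in EtOH IMC with the number tested in brackets and dotted lines for all genes; the right panel gives the median log2 fold change under IMC (filled) and without IMC (open), with the largest falls in Major urinary proteins and De novo lipogenesis.

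Hepatocyte markers were lower in sum in EtOH IMC (1327928 to 1703870.0) than in Pair IMC (2127186 to 2305611), with 1 of 12 genes called lower by limma (Trf), 2 by edgeR, 5 by DESeq2 and 4 at an unadjusted p under 0.05. Alb itself had values of 1406542, 1351802, 1435030.0 and 1420775 and 817549, 714939, 922608 and 995155, which did not overlap but did not pass limma's test (log2 fold change -0.71 ± 0.35, SE, adjusted p = 0.17), while it was called lower by edgeR (adjusted p = 0.0108) and DESeq2 (adjusted p = 3.75e-05). Summed Kupffer cell markers overlapped between the groups (3949 to 5787 in Pair IMC, 3974 to 6314 in EtOH IMC), with 0 of 12 called by limma, edgeR and DESeq2 and 1 at an unadjusted p under 0.05. Those of monocytes and neutrophils overlapped as well (574 to 769 and 549.7 to 834), with 0 of 5 tested called by these tools or at an unadjusted p under 0.05. Lymphocyte markers were low, with sums of 70.6 to 78.8 and 36.2 to 59.2; Ccl5, the 1 of 12 that was tested, fell by 1.14 (adjusted p = 0.00999). Sinusoidal endothelial markers rose in 3 of 15 (20% called, near the 17.1% over all genes), with overlapping sums. Bmp2 rose by 0.88 (adjusted p = 0.000924), Wnt2 by 0.85 (adjusted p = 0.0139, 0.051 without library 6) and Clec4g by 0.38 (adjusted p = 0.0415, at most 0.12 without library 1, 4, 6, 7, 8, 9, 13 or 15). Stellate cell markers were split, with Lrat, the retinol-esterifying enzyme gene, higher by 1.25, Des higher by 0.997 (adjusted p = 0.0261, at most 0.0731 without library 4, 6, 8 or 11), and Ecm1 and Reln lower by 0.98 and 0.85 (adjusted p = 0.000672, 0.000454 and 0.00273). Of 14 extracellular matrix genes 1 fell, fibronectin, Fn1, by 0.40 (adjusted p = 0.0156, 0.0525 without library 6). Of the 8 listed erythroid genes 4 were tested, and all 4 fell, beside 8.94% lower over all genes. Hba-a1 fell by 2.40, Hbb-bt by 2.05, Hbb-bs by 1.95 and Alas2 by 1.30 (adjusted p = 0.00224, 0.0207, 0.0147 and 0.000281). That of Hbb-bt was above 0.05 without library 9 or 11 (at most 0.0627). A gene low in EtOH IMC could reach the minimum through the Pair IMC libraries alone, so the filter may have favoured falls here. The summed values of the 8 listed erythroid genes were 217 to 389.8 in Pair IMC and 50.4 to 134 in EtOH IMC. Pancreas markers, of which 9 of 13 had no read in the 8 libraries, and intestine markers were at sums of at most 46.96 and 11.3. The part of these cell types in the results above was not tested.

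Hepatocytes differ along the lobule, and marker genes of both ends moved in both directions. Of 13 tested pericentral genes 3 rose and 4 fell (53.8% called), and of 14 periportal genes 4 rose and 2 fell (42.9% called). Over all genes 17.1% were called. Among pericentral genes Cyp1a2 rose while Cyp2e1, Glul and Rgn fell (-1.0, -0.58 and -0.89 on the log2 scale). The ammonium transporter gene Rhbg and the Wnt target Nkd1 rose by 0.76 (adjusted p = 0.0364, at most 0.109 without library 4, 6, 8, 11 or 13) and 0.72 (adjusted p = 0.0263, at most 0.0854 without library 2, 8, 9 or 13), and Gulo of vitamin C synthesis fell by 0.48 (adjusted p = 0.0158, at most 0.0566 without library 2, 8 or 9). Among periportal genes Hal, Aldh1b1 and Hsd17b13 rose as given above and Sdsl rose by 0.83 (adjusted p = 0.00527), while Cyp2f2 and Pigr fell (-0.71 and -0.47).

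To ask where the ethanol effect under IMC differed from that without it, the log2 fold change of EtOH IMC over Pair IMC was set against that of EtOH control over Pair control, which rests on other libraries. Without IMC, 1505 genes (12.5%) were called, 802 higher and 703 lower (823 in all without library 5 and 992 without library 14). Of the 2067 genes called under IMC, 610 (29.5%) were also called without it, which is 40.5% of the calls without IMC, and 587 of these had the same sign. The difference between the effects passed for 138 genes (1.14%), of which 98 were more negative and 40 more positive under IMC, and for 1851 genes at an unadjusted p under 0.05. This count was 337 with DESeq2 on whole reads, and it lay between 54 (without library 5) and 88 (without library 14) when any 1 of libraries 1, 2, 3, 5, 6, 7, 8, 12, 13, 14 and 15 was left out. As Pair IMC and EtOH control hold the early library numbers and the other 2 groups the late ones, the difference between the effects cannot be told apart from the order of numbering.

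Cyp2b10 and the heat shock gene Hspb1 lay on the diagonal of the plot of both effects: without IMC the ethanol effect was 5.75 for Cyp2b10 and 2.25 for Hspb1, differences of 0.40 and -0.07 that did not pass (adjusted p = 0.769 and 0.951). The effect on A1bg without IMC was -2.87 (difference -0.05 ± 0.97, SE). Cbr3 stood apart from them. The 4 values were 11.1, 13.6, 9.33 and 6.07 in Pair control, 4.46, 13.8, 14.3 and 13.03 in EtOH control, 5.05, 6.77, 9.96 and 5.01 in Pair IMC and 223, 127, 341 and 253 in EtOH IMC. Its rise was seen under IMC, and the ethanol effect without IMC was 0.11 ± 0.36 (difference 4.80 ± 0.51, adjusted p = 0.000355).

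The other large positive differences came from genes whose fitted effect without IMC was negative. Hamp, the gene of the iron hormone hepcidin, had values of 2757, 9942, 10532 and 11123 in Pair control and 1615, 2723, 752 and 1039 in EtOH control; there ethanol gave a log2 fold change of -2.47, against 0.84 under IMC (difference 3.31, adjusted p = 0.0227). Id1, a target of the same BMP pathway that drives hepcidin, had log2 fold changes of -1.81 without and 0.34 with IMC (difference 2.15, adjusted p = 0.0465). The difference of Id1 did not pass by edgeR (0.05415), with no filter or with no mean-variance trend. For Socs2, a feedback inhibitor of growth hormone signalling, they were -2.07 and -0.10 (difference 1.96, adjusted p = 0.0189), for the forkhead factor gene Foxq1 -1.39 and 0.34 (1.73, adjusted p = 0.0446), and for Sult2a5 -1.13 and 0.58 (1.71, adjusted p = 0.0414). None of these 5 genes was called under IMC by limma (adjusted p = 0.152 to 0.83). Leaving out 1 library ended the call of the difference for Hamp without library 5, 7, 12 or 15 (at most 0.0561), for Id1 and Foxq1 without 12 of the 16 libraries in turn and for Sult2a5 without 15 of them (at most 0.0973, 0.093 and 0.0874), while Socs2 and Cbr3 kept it in each.

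Of the large negative differences, Slc34a2, a sodium phosphate cotransporter gene, rose with ethanol without IMC. The 4 values were 11.1, 17.5, 1.17 and 11.1 in Pair control, 205, 129.6, 174 and 101 in EtOH control, 18.2, 40.6, 31.9 and 38.8 in Pair IMC and 41.9, 6.73, 20.8 and 13.1 in EtOH IMC. The ethanol effect was 4.08 without IMC and -0.84 with it (difference -4.92 ± 0.79, adjusted p = 0.00638). For Cyp8b1 the fitted effects had opposite signs: in the control mice its values were 2011, 1589, 1677 and 2032 with pair and 2956, 3115, 3198 and 2224 with ethanol feeding, a log2 fold change of 0.65, and the difference was -2.99 ± 0.50 (adjusted p = 0.00764). For Fabp5 and H2-Q1 the fitted effects were negative in both settings, with falls of 1.81 and 0.997 without IMC and larger ones under it (differences -2.90 and -2.77, adjusted p = 0.0131 and 0.0041). Ntrk2, a neurotrophin receptor gene, and the noncoding gene 1500017E21Rik had effects of -0.55 and -0.05 without and -3.41 and -2.79 with IMC (differences -2.86 and -2.74, adjusted p = 0.0131 and 0.0367). The difference of 1500017E21Rik lost its call without 12 of the 16 libraries in turn (at most 0.0822), and the other 5 kept theirs by limma. By edgeR without library 15, those of Fabp5 and Ntrk2 did not pass (adjusted p = 0.0573 and 0.0519). Among the lists, the lipogenic genes Scd1, Elovl5 and Pklr had differences of -2.05, -1.43 and -1.11 (adjusted p = 0.0422, 0.00921 and 0.0131; that of Scd1 was lost without 13 of the 16 libraries in turn, at most 0.0898), and 4 of the 21 lipogenic genes tested passed, all negative (the fourth was Acly, -1.13, adjusted p = 0.0479, which lost the call without 13 of the 16 libraries in turn, at most 0.101, and with quantile normalization, with no filter and with no mean-variance trend), beside 1.14% of all genes. For Cyp7a1 the ethanol effect without IMC was 0.09 and the difference of -2.25 did not pass by limma (adjusted p = 0.113) or edgeR (0.0914). It did pass with DESeq2 (0.0488) and by limma without library 1 (0.047).

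**Figure D4:**
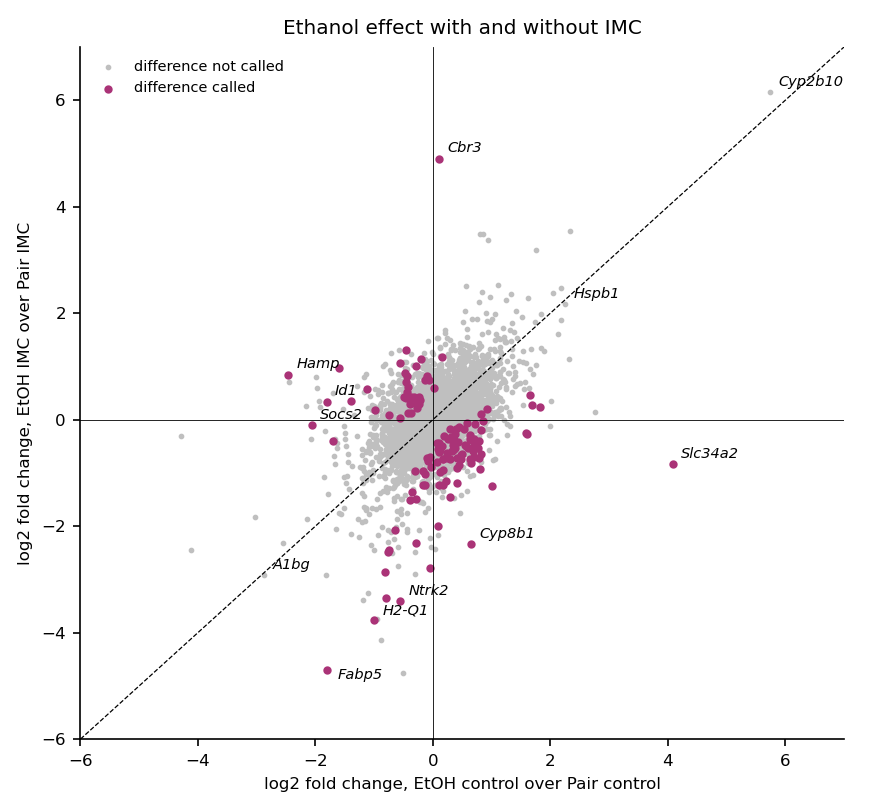
Ethanol effect without IMC (x axis, log2 fold change of EtOH control over Pair control) against that with IMC (y axis, EtOH IMC over Pair IMC) for the 12084 genes tested; purple points are the 138 genes whose difference passed and the dashed line marks equal effects. Cyp2b10 and Hspb1 lie near the line, Cbr3 above it and Slc34a2, Cyp8b1 and Fabp5 below it.

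**Figure D5:**
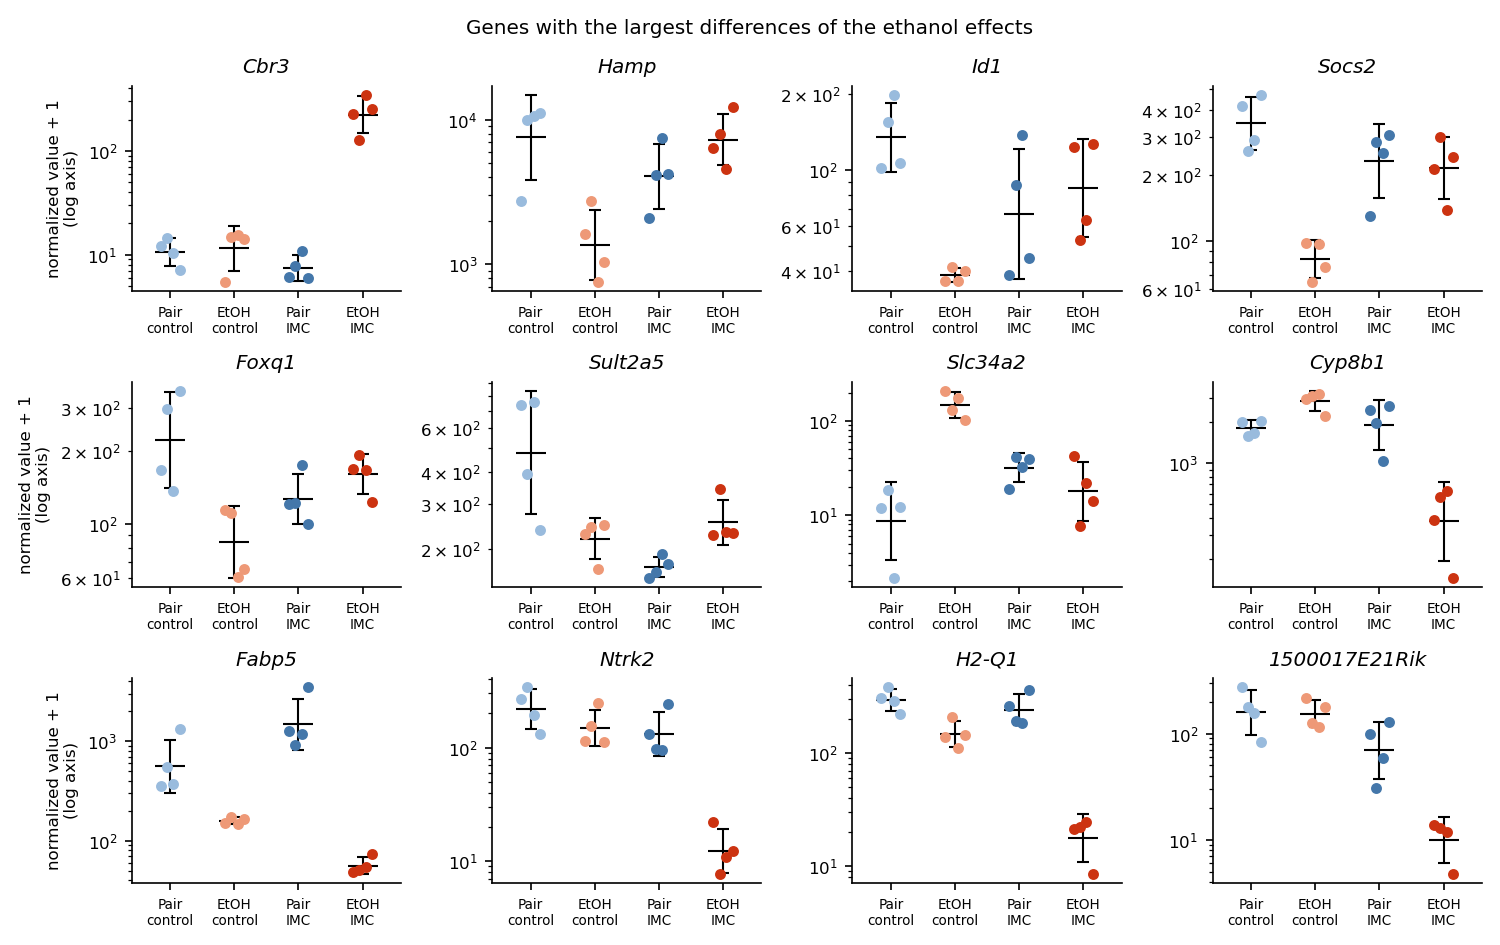
The 12 genes with the largest differences, in all 4 groups: points are single libraries on a log axis of the normalized value plus 1, bars the mean of the log values with its SD (4 libraries a group). In the Hamp, Id1, Socs2 and Foxq1 panels EtOH control has the lowest mean, in the Cbr3 panel the 4 EtOH IMC libraries lie above all others, and in the Slc34a2 panel the 4 EtOH control libraries do.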

How the data were processed

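Liver RNA libraries (directional mRNA kit) were, per the study's methods, trimmed with Trim Galore, checked with FastQC and aligned with STAR to mm10 with UCSC annotation. The counting tool is not given in the sources used here. The deposited signal values are read counts per gene divided by a factor for each library by the authors (upper-quantile scaling with edgeR is named). They were scaled separately within each diet. In this work, 100% of values were whole multiples (within 0.01) of 1 read's worth. Values were rescaled over 16 libraries by median ratios, and 27212 rows were reduced to 24082 Ensembl IDs. Genes that reached a value of 10 in 4 or more of the 8 libraries were tested on log2(value + 1) with limma 3.58.1 in R 4.3.3, with the means of 4 groups and a mean-variance trend. Fold changes on this scale understate changes of low genes. A gene could reach the minimum through the 4 libraries of 1 group alone. Benjamini-Hochberg adjusted p under 0.05 counted as called. edgeR 4.0.16, which called 2051 genes on the recovered reads, and DESeq2 1.42.0 were alternatives, as were other scalings, pseudocounts and filters, and leaving out each library. Scripts were tested on simulated data. Between 9632659 and 12601199 reads were counted per library. Per the study, each library came from 1 mouse. Positions are those of GENCODE vM21 and sequences those of RefSeq, both on GRCm38.

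The text names the 15 largest rises and 15 largest falls (not overlapping, mean of at least 50), key genes of 54 lists and the 4 members of each list with the smallest p, and 6 differences each way, from 377 such genes; members outside these were named after their values were seen where a count was 5 or fewer (among them Adh7, Fmo4, Agpat2, Plin3, Sult2a3, Khk and Rhbg) and for Spry4, Acacb, Fads1 and Fads2. Members and lists were chosen with earlier results of these data known. Results of some genes are not reported here.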

Additional observations from a re-analysis of the deposited data

Results flagged for a closer look

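Within Pair IMC and within EtOH IMC, each named gene was searched for 1 library whose gap to its nearest neighbour, divided by the range of the 4 log2 values, was above Dixon's 95% critical value. This held in 35 of 488 groups of 4, and chance sets apart about 1 in 20 groups.

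Library 2 of Pair IMC lay above the others for Glud1 (ratio 0.839) and below the others for Chkb (ratio 0.964) and Me1 (ratio 0.95). Library 4 of Pair IMC lay above the others for Ddit3 (ratio 0.935) and Peg3 (ratio 0.831). Library 6 of Pair IMC lay above the others for Ugt1a6a (ratio 0.883). Library 8 of Pair IMC lay above the others for Acss2 (ratio 0.841), Ass1 (ratio 0.92), Bmp2 (ratio 0.921), Cps1 (ratio 0.841), Gstz1 (ratio 0.886), Ugt1a5 (ratio 0.836) and Uqcrfs1 (ratio 0.908) and below the others for Bax (ratio 0.883), Hsph1 (ratio 0.884), Imp4 (ratio 0.839) and Psmc5 (ratio 0.844). In library 8 the highest ratio was that of Bmp2, with a value of 239 against 187 to 191 in the other 3 libraries. Library 9 of EtOH IMC lay below the others for Pfkl (ratio 0.893) and Pklr (ratio 0.871). Library 11 of EtOH IMC lay above the others for Bbc3 (ratio 0.869), Sult2a5 (ratio 0.932) and Sult2a8 (ratio 0.974) and below the others for Aldh1b1 (ratio 0.854), Ccng1 (ratio 0.858), Gstm3 (ratio 0.84), Hsp90aa1 (ratio 0.892), Hsph1 (ratio 0.952) and Utp14a (ratio 0.871). In library 11 the highest ratio was that of Sult2a8, with a value of 615 against 65.3 to 69.3 in the other 3 libraries. Library 13 of EtOH IMC lay above the others for Abcg2 (ratio 0.926), Gclc (ratio 0.859), Gsr (ratio 0.893) and Mcm2 (ratio 0.897). Library 15 of EtOH IMC lay above the others for Imp4 (ratio 0.909) and below the others for 1500017E21Rik (ratio 0.858) and H2-Q1 (ratio 0.869).

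The ethanol effect under IMC differed from that without IMC, by limma's test of the difference itself, for 30 named genes. The difference (log2, effect under IMC minus effect without it) was positive for Bax (0.92), Cbr3 (4.80), Foxq1 (1.73), Hamp (3.31), Id1 (2.15), Isg15 (1.28), Socs2 (1.96), Sult2a5 (1.71) and Tap1 (0.89). It was negative for 1500017E21Rik (-2.74), Acly (-1.13), Cyp2c39 (-1.72), Cyp2f2 (-1.49), Cyp8b1 (-2.99), Dmgdh (-0.91), Dntt (-2.55), Ecm1 (-1.11), Elovl5 (-1.43), F5 (-0.61), Fabp5 (-2.90), H2-Q1 (-2.77), Mup3 (-2.02), Ntrk2 (-2.86), Pklr (-1.11), Prlr (-0.70), Reln (-1.30), Scd1 (-2.05), Slc34a2 (-4.92), Ugt1a5 (-1.71) and Ugt3a1 (-1.40). By limma, the call of 14 of these was lost with 1 library left out, for 1500017E21Rik, Acly, Bax, Cyp2c39, Dmgdh, F5, Foxq1, Id1, Isg15, Prlr, Scd1, Sult2a5 and Tap1 without 11 to 15 of the 16 libraries in turn and for Hamp without 4 (adjusted p at most 0.101). Fabp5 and Ntrk2 lost it by edgeR without library 15 (0.0573 and 0.0519). On all libraries, Cyp2c39, F5 and Id1 lost it by edgeR (0.05687, 0.05364 and 0.05415).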

How the results depend on the processing

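The ethanol effect under IMC gave 1726 to 2293 called genes over the alternatives that used every library and were not on the deposited scale, against 2067. A fit of the 8 IMC libraries alone gave fewer calls, 1563. On the values as deposited the count was 3620 under IMC, with 3193 rises and 427 falls, so that the share of rises went from 47.8% to 88.2%. On that scale the effect without IMC went from 1505 to 3008 calls and the effect averaged over both treatments from 3247 to 5183. The deposited factors differ between the diets, which by construction moves the groups apart. Leaving out 1 library gave 1371 calls (without library 15) to 2199 under IMC, 823 (without library 5) to 1593 without IMC and 2702 to 3410 averaged, and the effect without IMC was also down to 992 without library 14. Library 15 was also left out of both count tests, an alternative chosen after seeing the data because 1 read is worth close to 1 there (1.01). Its values were whole multiples of 1 read's worth in 100% of cases, as in every other library. Without library 15 there were 1360 calls by edgeR and 1650 by DESeq2 under IMC. The 138 genes whose ethanol effect differed between the treatments were the least stable count. It was 80 with no filter, 87 with no mean-variance trend, 337 by DESeq2, 73 by edgeR and 258 by DESeq2 without library 15, and 54 (without library 5) to 161 with 1 library left out; it was over 1.5 times lower without each of libraries 1, 2, 3, 5, 6, 7, 8, 12, 13, 14 and 15. The cause was not tested. Of 244 genes of the text, 202 were called under IMC, and 131 of these kept the call in every setting run, while 61 lost it without some library and 62 in some other setting. 36 lost it on the deposited scale, 11 with quantile normalization, 21 with no filter, 25 in a fit of the 8 IMC libraries alone, 5 by edgeR and 2 by DESeq2. Trf was the gene that changed sign, at 0.37 with quantile normalization. For the difference between the effects, 14 of 30 called genes of the text kept the call in every setting. With 4 libraries a group, leaving 1 out leaves 3, and genes of few reads are limited by depth. No paired analysis was possible because the labels do not state which pair-fed mouse was matched to which ethanol-fed mouse.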

Other observations

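4 genes among the 15 protein-coding genes with the largest falls under IMC belong to none of the gene groups above. Chrna4 encodes a subunit of the nicotinic acetylcholine receptor. Chrna4 had values of 239, 156, 287 and 843 in Pair IMC and 16.2, 38.7, 45.5 and 23.5 in EtOH IMC. It fell by 3.38 on the log2 scale (limma, adjusted p = 0.000104). Dntt is the terminal deoxynucleotidyl transferase of developing lymphocytes. Dntt had values of 71.7, 58.1, 76.7 and 150.2 in Pair IMC and 4.27, 13.5, 6.92 and 6.57 in EtOH IMC. It fell by 3.36 (limma, adjusted p = 4.5e-06). The 15 falls were picked among called genes whose groups did not overlap, so the lack of overlap was set by that choice. Adgrf1 encodes an adhesion G protein-coupled receptor. Adgrf1 had values of 100.0, 27.1, 62.7 and 68.8 in Pair IMC and 2.56, 7.58, 7.91 and 4.70 in EtOH IMC. It fell by 3.25 (limma, adjusted p = 0.000155). Serpina12 encodes vaspin, a secreted serpin. Serpina12 had values of 57.6, 97.7, 70.7 and 138 in Pair IMC and 13.7, 16.8, 10.9 and 23.5 in EtOH IMC. It fell by 2.39 (limma, adjusted p = 0.00204). Leaving out any 1 library kept all 4 falls past the threshold.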
